A study of Homo sapiens with 4 samples.

Results

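The genes described here encode 6 growth factors of the EGF family (AREG, EREG, HBEGF, TGFA, BTC and NRG1) and the 4 ERBB receptors to which such ligands bind (EGFR, ERBB2, ERBB3 and ERBB4). They are 10 of the 56832 genes in the deposited table and were found there by symbol. The list was selected on family membership and on measured values of the octanoate against vehicle comparison, in which AREG stood out, so the differences of these 10 genes between the groups are given as descriptions without a test. RNA was sequenced from A375, an established human melanoma cell line known to carry an activating BRAF mutation and labelled WT for genotype. Cells kept in DMEM with 10% serum were exposed for 48 h to octanoate, a fatty acid of medium chain length, at 1 mM, or to the vehicle isopropanol. Each group has 2 libraries, so all samples are 1 cell line at 1 dose and 1 time. The labels do not say whether replicates came from separate cultures, and the p-values below then measure only the spread between these libraries, which may be technical.

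EGF-family ligands are made as membrane-anchored precursors and are released by metalloproteases such as ADAM17, after which they bind ERBB receptors on the same or on neighbouring cells. AREG, EREG, HBEGF, TGFA and BTC bind EGFR, EREG, HBEGF and BTC can also bind ERBB4, and NRG1 binds ERBB3 and ERBB4. ERBB2 binds no known ligand and acts as a partner of the other receptors, and ERBB3 has little kinase activity of its own and signals through that partner. Receptor dimers feed the RAS and ERK cascade and the PI3K and AKT pathway, and in melanoma ERBB3 and NRG1 are known for their part in the response to BRAF inhibitors.

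Between 67785956 and 78005035 reads were recovered per library. Levels are given as the deposited normalised read counts, which carry 1 scaling factor per library and are compared between libraries for 1 gene at a time. Where genes are compared with each other, the normalised count was divided by the length of all exons of the gene in GENCODE 29 (GRCh38). The melanoma label was checked with fixed markers: SOX10 lay between 34072 and 41363 and CSPG4 between 42355 and 60680 normalised counts, and 9 of 10 melanoma markers exceeded 10 in some library. Of the other melanoma markers, MITF and S100B had vehicle means of 3431 and 3988. PMEL, MLANA, DCT, MIA and S100A1 were low, with vehicle means of 65.8, 42.0, 27.3, 76.4 and 140. The pigment gene TYR stayed at or under 3.93. Summed leukocyte markers ran from 595 to 655 in vehicle and from 713 to 773 in octanoate, nearly all from LYZ, while PTPRC did not exceed 10.8. Summed fibroblast markers ran from 2389 to 2415 and from 2078 to 2199, and 6 of 6 exceeded 10 in some library. Passing 10 therefore does not set the melanoma markers apart.

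All 6 ligands had higher normalised counts in both octanoate libraries than in both vehicle libraries, whereas the receptors were split. Of the 20250 genes whose mean normalised count reached 10, 32.6% were higher without overlap and 30.5% were lower without overlap, and since the members were chosen from this comparison nothing is read from their count. Of the receptors, EGFR was higher without overlap, ERBB2 and ERBB3 were lower without overlap, and ERBB4 overlapped. The median log2 difference, on the log2(normalised count + 1) scale, was 0.68 over the ligands and 0.01 over the receptors, beside 0.01 over all tested genes. All 10 genes passed the filter at a mean of 10.

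**Figure D1:**
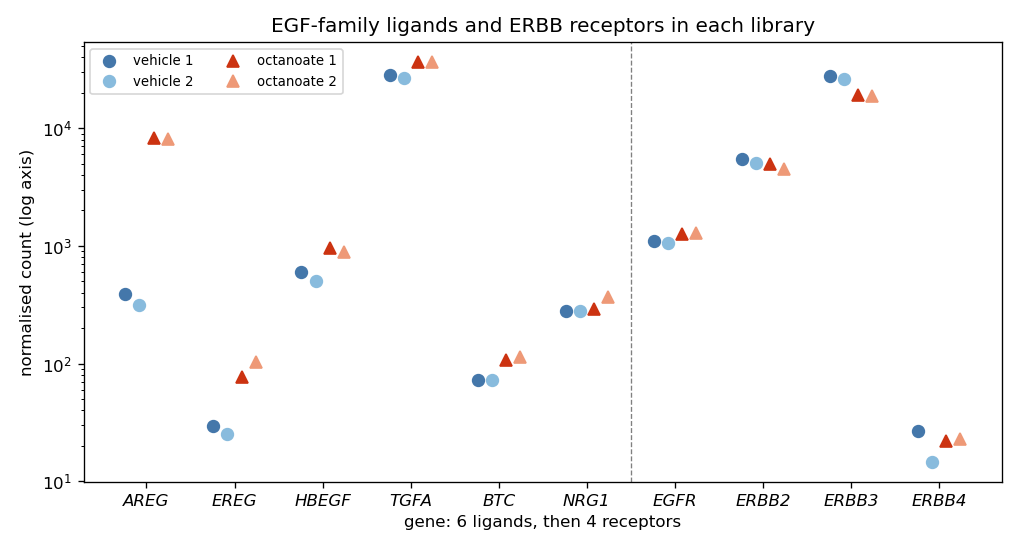
Normalised count (log axis) of each gene in the 2 vehicle libraries (circles) and the 2 octanoate libraries (triangles), with the 6 ligands left of the dashed line and the 4 receptors right of it. AREG moves from 317 and 393 in vehicle to 8098 and 8244 in octanoate, TGFA is the most abundant ligand in every library, and the octanoate triangles of ERBB3 lie below its circles.

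AREG encodes amphiregulin, an EGFR ligand with a heparin-binding region. Its normalised count was 393 in vehicle 1, 317 in vehicle 2, 8244 in octanoate 1 and 8098 in octanoate 2. The octanoate libraries lay far above both vehicle libraries, with a ratio of group means of 23.0, and the log2 difference was 4.53 (SE 0.08). The gap between replicates was 0.31 in vehicle and 0.03 in octanoate on the same scale. The level rested on 327 reads or more in each library, and no other gene shared exon bases or long near-identical sequence with AREG.

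EREG encodes epiregulin and lies next to AREG on chromosome 4. Its counts were 29.4, 25.2, 77.0 and 103 in vehicle 1, vehicle 2, octanoate 1 and octanoate 2. Both octanoate values were above both vehicle values, at a ratio of means of 3.29 and a log2 difference of 1.67 (SE 0.24). EREG was scarce in all 4 libraries, with 26 to 95 reads, and the octanoate replicates differed by 0.41 on the log2 scale. Stretches of up to 120 bases at 95% identity are shared with CTSB and NUBP2, so a part of this low count is uncertain.

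In GENCODE 29 (GRCh38) EREG spans chr4:74365143-74388751 and AREG spans chr4:74445134-74455009, both on the plus strand and 56383 bases apart. Because these neighbours had the highest ratios of the 6 ligands, the stretch from -210 to -11, counted from the RefSeq start of each (GRCh38.p14, plus strand, chr4:74444926-74445125 for AREG and chr4:74364935-74365134 for EREG) is shown, with motif matches in capitals:
AREG: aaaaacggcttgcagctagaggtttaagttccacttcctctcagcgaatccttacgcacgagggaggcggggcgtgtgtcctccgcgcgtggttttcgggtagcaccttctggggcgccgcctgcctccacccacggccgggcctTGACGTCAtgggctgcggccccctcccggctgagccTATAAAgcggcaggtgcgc
EREG: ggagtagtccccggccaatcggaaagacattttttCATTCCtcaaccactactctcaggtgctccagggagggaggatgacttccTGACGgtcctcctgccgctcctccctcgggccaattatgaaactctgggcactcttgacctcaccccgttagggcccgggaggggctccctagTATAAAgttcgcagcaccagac
In AREG the capitals mark a full cAMP response element (TGACGTCA), whose first base is at -65, and a TATA box core (TATAAA) at -29. In EREG they mark a TEAD motif (CATTCC) at -175, the shorter core of that element (TGACG) at -125 and a TATA box core at -32. The full element contains this core on each strand.

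Of 35116 promoter windows of 300 bases in the RefSeq table, 1.85% hold the full cAMP response element on either strand, 24.6% its shorter core, 11.5% the TATA core and 14.0% the TEAD motif. Windows were present for 8 of the 10 genes, and NRG1 was left out of the search. The same search covered AP-1 (TGANTCA, in 7.71% of windows), ETS (CCGGAAGT, 4.14%), one form of the NF-kappaB site (1.91%) and the PPAR response element (0.0228%). None of these 4 forms had a match in the AREG or EREG window, and other forms of the sites were not searched. ETS was searched only as CCGGAAGT, and both printed stretches hold acttcc, the reverse complement of its GGAAGT part. The lack of a match is therefore not read as absence of an ETS site. The search says nothing about which factors act in these windows. Since 8 of the 35116 windows held the PPAR form, its absence here carries little information. The full cAMP response element was found in the AREG window and in no other window of these genes that was searched.

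The other protein-coding genes within 300 kb of AREG, EREG or BTC were CXCL2, MTHFD2L, EPGN and PARM1. Of the 3 that could be tested, all 3 rose, where 16.2% of all tested genes were called higher and 13.7% were called lower at a limma adjusted p under 0.05. CXCL2, a neutrophil chemokine, was at 60.9 and 56.2 in vehicle and at 143 and 129 in octanoate, a log2 difference of 1.20 (SE 0.18, adjusted p = 1.41e-05). PARM1, a mucin-like membrane protein, was at 183 and 155 in vehicle and at 367 and 350 in octanoate, a difference of 1.09 (SE 0.12, adjusted p = 2.47e-07). MTHFD2L, a mitochondrial folate enzyme, was at 792 and 768 in vehicle and at 1166 and 1185 in octanoate, a difference of 0.59 (SE 0.08, adjusted p = 1.91e-06). EPGN, the EGF-family gene next to EREG, held at most 4.33 normalised counts in any library and was not tested.

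HBEGF encodes heparin-binding EGF-like growth factor, also known as the receptor for diphtheria toxin. Its counts of 596 and 503 in vehicle lay below those of 953 and 891 in octanoate, with a log2 difference of 0.75 (SE 0.09) and a ratio of means of 1.68. BTC encodes betacellulin and lies 289750 bases beyond AREG, on the opposite strand. It was at 72.6 and 72.7 in vehicle and at 108 and 114 in octanoate, a log2 difference of 0.60 (SE 0.18), on 74 to 112 reads per library. For both genes the groups were apart by more than the gap between replicates.

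TGFA encodes transforming growth factor alpha, a classical autocrine ligand of EGFR. Its normalised counts were 28177 and 26498 in vehicle and 36259 and 36273 in octanoate. The group means were 27337 and 36266, and the log2 difference was 0.41 (SE 0.06), small beside that of AREG. Per kb of exon, the means were 5508 in vehicle and 7307 in octanoate for TGFA, against 215 and 4958 for AREG. The gap per length was thus larger for AREG. NRG1 encodes neuregulin 1. It was at 282 in each vehicle library and at 291 and 366 in octanoate, a log2 difference of 0.21 (SE 0.12). The octanoate replicates of NRG1 differed by 0.33, more than the groups did, although the groups did not overlap, and the difference was 0.38 without octanoate 1 and 0.045 without octanoate 2.

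**Figure D2:**
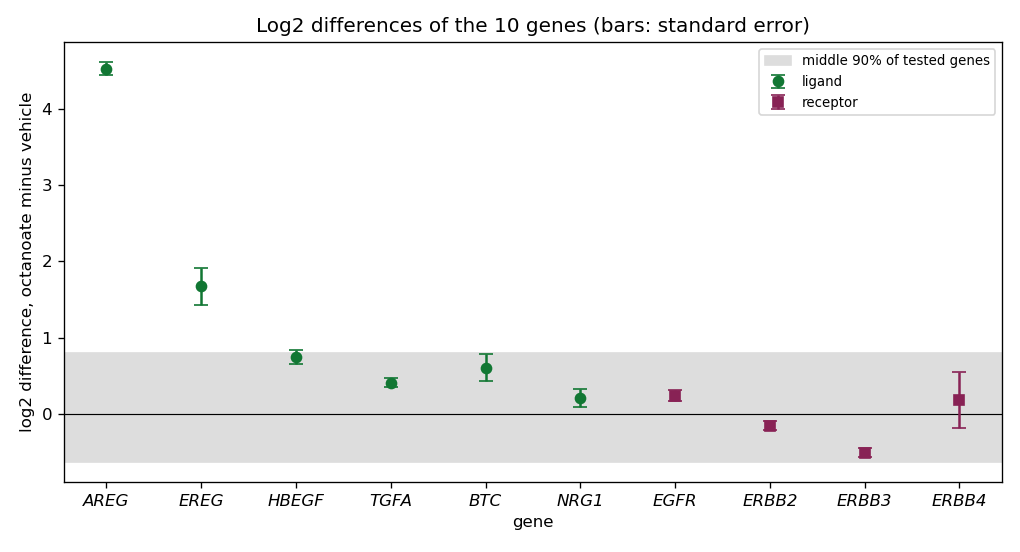
Log2 difference of octanoate minus vehicle, on the log2(normalised count + 1) scale, for each of the 10 genes, with standard errors from limma as bars. The grey band holds the middle 90% of tested genes (-0.63 to 0.79). AREG (4.53) and EREG (1.67) lie above the band and the other 8 genes inside it.

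ERBB3 encodes the neuregulin receptor and was the most abundant receptor. It was at 27602 and 26307 normalised counts in vehicle and at 19091 and 18705 in octanoate. Both octanoate libraries were lower, at a ratio of means of 0.701 and a log2 difference of -0.51 (SE 0.06), and the replicates of each group differed by 0.07 or less. Among the melanoma markers MITF, a lineage transcription factor, and S100B, a calcium-binding protein of neural crest cells, fell in the same libraries. MITF had a log2 difference of -0.48 (limma adjusted p = 2.33e-06) and S100B one of -1.12 (limma adjusted p = 9.15e-12). CSPG4, a melanoma surface proteoglycan, rose by 0.42 (limma adjusted p = 1.47e-05), a call lost without the intensity trend (adjusted p = 0.0701). SOX10 had a log2 difference of -0.12 (limma adjusted p = 0.209). PMEL, a pigment gene with means of 65.8 in vehicle and 96.8 in octanoate, rose by 0.55 (limma adjusted p = 0.0289). It rested on 67 to 102 reads per library, and whether its call holds under other settings was not examined. Over the 9 tested melanoma markers 2 rose, 2 fell and 5 were not called. The summed level of all 10 markers ran from 87598 to 95532 in vehicle and from 95919 to 104510 in octanoate. Most of it was SOX10 and CSPG4. The part of these markers in the ERBB3 result was not tested.

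ERBB2 encodes the receptor without a ligand. It was at 5452 and 5027 in vehicle and at 4936 and 4478 in octanoate. The log2 difference of -0.16 (SE 0.06) was close to the gap between its replicates, 0.12 in vehicle and 0.14 in octanoate. It was -0.097 without vehicle 1 and -0.085 without octanoate 2. Exons of ERBB2 overlap 571 bases of MIEN1 and 194 bases of PGAP3 on the opposite strand. Whether reads were counted by strand is not given in the sources used here. MIEN1 had means of 1351 in vehicle and 1663 in octanoate.

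EGFR, the receptor of AREG and TGFA, was at 1105 and 1063 in vehicle and at 1258 and 1297 in octanoate. Its log2 difference was 0.24 (SE 0.07), with replicate gaps of 0.06 and 0.04. ERBB4 was at 26.5 and 14.5 in vehicle and at 22.1 and 22.8 in octanoate. Both octanoate values of ERBB4 lay between the vehicle values, and a difference was not detectable at this depth of 15 to 27 reads. The log2 difference of 0.18 (SE 0.37) became 0.59 without vehicle 1 and -0.23 without vehicle 2. In the authors' deposited table the log2 fold change was 4.53 for AREG, 1.72 for EREG, 0.41 for TGFA, 0.24 for EGFR and -0.51 for ERBB3. All 10 genes had the same sign in the authors' deposited table as here, and the largest gap between the log2 values was 0.052, for ERBB4.

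Per length, the vehicle cells held far more TGFA transcript than any other ligand of the list. TGFA had 5508 ± 239 normalised counts per kb in vehicle (SD, n = 2), at the 97.4th percentile of 18730 protein-coding genes. AREG followed at 215 ± 32.5 and HBEGF at 182 ± 21.8, and their vehicle libraries overlapped (AREG 238 and 192, HBEGF 197 and 167). BTC had 25.8 and NRG1 24.9, a gap that changed direction with the length used, since over the longest transcript NRG1 had 47.5 and BTC 25.8. EREG was the scarcest at 4.78 ± 0.526 (SD, n = 2), at percentile 26.7 to 28.7.

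In octanoate AREG came within reach of TGFA, at 4958 ± 62.9 against 7307 ± 1.94 normalised counts per kb (SD, n = 2 each). The ratio of TGFA to AREG per length was 23.8 and 27.8 in vehicle, against 1.46 and 1.49 in octanoate. AREG made up 3.86% and 3.34% of the summed ligand level per length in vehicle and 39.4% and 39.0% in octanoate. TGFA went from 92.0% and 92.8% to 57.5% and 58.0%. The sum over the 6 ligands was 6169 and 5753 in vehicle and 12702 and 12608 in octanoate. HBEGF made up 3.20% and 2.90% in vehicle and 2.49% and 2.34% in octanoate, a lower share of a larger sum.

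For the receptors the order per length was ERBB3, ERBB2, EGFR and ERBB4 in every library, with no overlap between neighbours. In vehicle they had 2982 ± 101, 508 ± 29.1, 86.6 ± 2.39 and 1.58 ± 0.650 normalised counts per kb (SD, n = 2 each). ERBB3 exceeded EGFR 34.6-fold and 34.3-fold in vehicle, against 21.0-fold and 19.97-fold in octanoate. The summed receptor level was 3672 and 3483 in vehicle and 2692 and 2609 in octanoate, so that the ligand sum was higher and the receptor sum lower in both octanoate libraries. EGFR made up at most 2.44% of the receptor sum in vehicle and 3.73% and 3.97% in octanoate. Fewer cells with a transcript and less of it per cell cannot be told apart in these bulk samples.

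**Figure D3:**
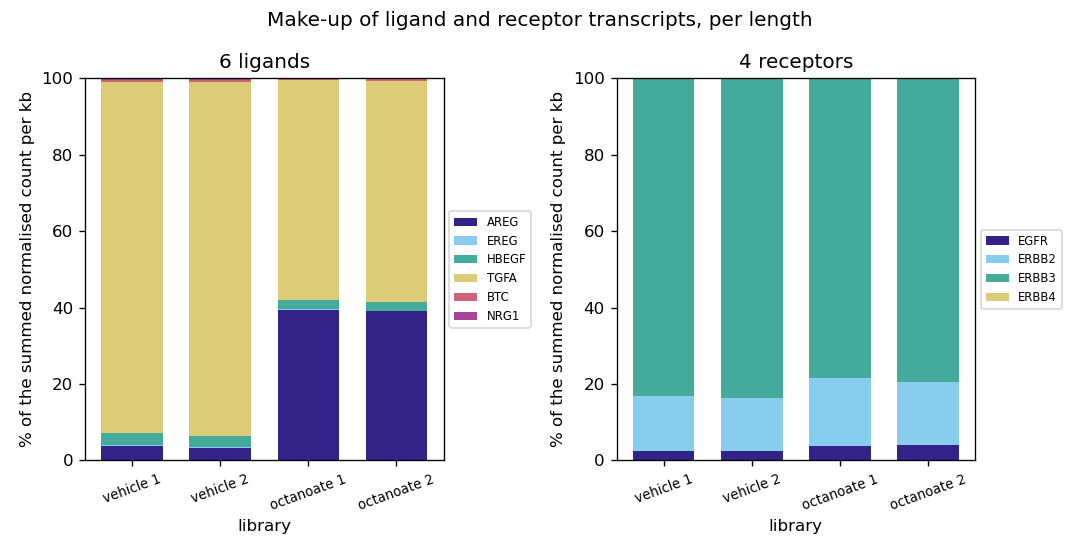
Share (%) of each gene in the summed normalised count per kb of the 6 ligands (left) and the 4 receptors (right), 1 stacked bar per library. AREG grows from 3.86% and 3.34% of the ligand sum in vehicle to 39.4% and 39.0% in octanoate and the TGFA share shrinks, while ERBB3 holds 78.4% or more of the receptor sum in all 4 libraries.

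The genes most like AREG over the 4 libraries, by Euclidean distance between centred log2 profiles out of 13482 genes whose mean reached 100, were ANGPTL4 (distance 0.76), IL1B (1.00) and C11orf86 (1.17). ANGPTL4, a secreted inhibitor of lipoprotein lipase, went from 506 and 301 to 15245 and 13952. C11orf86 went from 25.5 and 25.2 to 298 and 254. For EREG the nearest were IL1RL1 (distance 0.21), the interleukin-33 receptor, ADIRF-AS1 (0.23) and SERPIND1 (0.25). IL1RL1 was at 114 and 101 in vehicle and at 346 and 380 in octanoate. These distances rest on 4 libraries and, with each profile centred, describe only a likeness of pattern and not of level.

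No other tested ligand of the family was called. NRG2 had 542 and 497 normalised counts in vehicle and 565 and 494 in octanoate, so that its groups overlapped (log2 difference 0.03, limma adjusted p = 0.873). EGF, the founding ligand, was at 175 and 176 in vehicle and at 145 and 141 in octanoate, a log2 difference of -0.29 (limma adjusted p = 0.121). NRG4 had a log2 difference of 0.26 (limma adjusted p = 0.568), and 38.1% of its exon bases overlap FBXO22 on the opposite strand. EPGN and NRG3, the latter at 4.81 or less, were below the filter.

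Of 13 genes of ligand shedding, 3 rose, 0 fell and 10 were not called, beside 16.2% called higher and 13.7% called lower over all tested genes. With so few genes a count of 3 is near that background. ADAM19, a metalloprotease known to process neuregulin, was at 3864 and 3643 in vehicle and at 6662 and 6769 in octanoate, which is 0.84 higher on the log2 scale (SE 0.06, limma adjusted p = 7.36e-11). TIMP3, an inhibitor of ADAM17, rose by 0.21 (limma adjusted p = 0.0202), and ADAM9, chosen after its values were seen, rose by 0.17 (limma adjusted p = 0.0235). The calls of TIMP3 and ADAM9 were each lost on leaving out any of 3 single libraries: vehicle 2, octanoate 1 or octanoate 2 for TIMP3 (adjusted p = 0.114 to 0.150), and vehicle 1, octanoate 1 or octanoate 2 for ADAM9 (adjusted p = 0.105 to 0.140). ADAM17 itself, the main sheddase of AREG and TGFA, had a log2 difference of 0.12 (limma adjusted p = 0.124), and ADAM10 one of -0.02 (limma adjusted p = 0.828).

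Of 13 tested genes listed as negative regulators of the receptors, 5 rose, 1 fell and 7 were not called. The background over all tested genes was 16.2% called higher and 13.7% called lower. The role of each listed gene in these cells was not tested. ERRFI1, which encodes MIG6, a direct inhibitor of EGFR, was at 28712 and 27687 in vehicle and at 50384 and 51506 in octanoate. Its log2 difference of 0.85 (SE 0.06, limma adjusted p = 3.92e-11) was called under each of the 14 alternatives. CBL, a ubiquitin ligase of activated EGFR, rose by 0.32 (limma adjusted p = 0.000234), although 509 of its exon bases overlap MCAM, whose mean was 23243 in vehicle. The others, chosen after their values were seen, were LRIG3 (0.32), UBASH3B (0.27) and RNF41 (0.20), which rose, and SOCS5 (-0.17), which fell. RNF41 encodes a ubiquitin ligase that targets ERBB3. It lost its call without vehicle 2 or octanoate 1 (adjusted p = 0.0516 to 0.127), and SOCS5 lost it without any 1 of the 4 libraries (adjusted p = 0.0717 to 0.151) and under TMM scaling (adjusted p = 0.0583). Without an intensity trend in the fit ERRFI1 was the only one of the 6 to keep its call, and CBL had an adjusted p = 0.106.

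Components of the pathway inside the cell were read in 4 lists, beside 16.2% called higher and 13.7% called lower over all tested genes. With lists this small, nothing is read from the counts. Of 13 adaptor and docking genes 0 rose and 3 fell: CRK (log2 difference -0.25, limma adjusted p = 0.00126), GAB1 (-0.34, limma adjusted p = 0.00901) and, chosen after its values were seen, SOS1 (-0.17, limma adjusted p = 0.0300). Of 10 genes of RAS, RAF, MEK and ERK, MAP2K1, which encodes MEK1, rose by 0.26 (limma adjusted p = 0.00133), NRAS fell (-0.24, limma adjusted p = 0.00190) and 8 were not called. Of 9 PI3K and AKT genes 1 rose and 2 fell. PIK3R1, the regulatory PI3K subunit, went from 2394 and 2556 to 1642 and 1791, or -0.53 as a log2 difference (SE 0.07, limma adjusted p = 1.91e-06). PDPK1 had one of -0.30 (limma adjusted p = 0.000568) but shares 2387 bases at 99.9% identity with PDPK2P, so its count is uncertain, and PIK3CB, chosen after its values were seen, rose by 0.22 (limma adjusted p = 0.00653). Of 10 receptor trafficking genes EPN1 fell (-0.20, limma adjusted p = 0.0204) and 9 were not called. These calls were also lost without single libraries: EPN1 without vehicle 1 or octanoate 2 (adjusted p = 0.254 and 0.281), GAB1 without vehicle 1 or octanoate 1 (adjusted p = 0.129 and 0.181), SOS1 without vehicle 1, vehicle 2 or octanoate 1 (adjusted p = 0.0646 to 0.250) and PIK3CB without octanoate 2 (adjusted p = 0.150). Without an intensity trend no call in these 4 lists remained, with adjusted p from 0.0527 (PIK3R1) to 0.270 (EPN1). The call of SOS1 was also lost under TMM scaling (adjusted p = 0.0608).

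Most genes of a list known to be switched on by ERK were called. Of 16 tested, 12 rose, 3 fell and 1 was not called, beside 16.2% called higher and 13.7% called lower over all tested genes. Their median log2 difference was 0.30, beside 0.01 over all tested genes. VGF, a neuropeptide precursor, was at 13907 and 10774 in vehicle and at 51618 and 42719 in octanoate, which is 1.94 higher on the log2 scale (SE 0.09, limma adjusted p = 2.16e-14). PLAUR, the urokinase receptor, was at 2700 and 2490 in vehicle and at 6084 and 5915 in octanoate, a difference of 1.21 (SE 0.06, limma adjusted p = 1.95e-13). The 3 that fell, chosen after their values were seen, were the feedback inhibitor SPRY4 (-0.35), IER3 (-0.23) and the ETS factor ETV5 (-0.23), and FOS was not called (0.19, limma adjusted p = 0.205). Earlier results for genes of this kind were known when the list was written, and it is not independent evidence of a direction. Of the 15 calls 7 held under every alternative, and single libraries ended those of IER3 (without vehicle 1 or octanoate 2, adjusted p = 0.0557 and 0.114), ETV5 (without vehicle 1, adjusted p = 0.0581), SPRY2 (without vehicle 2, adjusted p = 0.0514) and DUSP6 (without vehicle 2, octanoate 1 or octanoate 2, adjusted p = 0.0998 to 0.273).

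**Figure D4:**
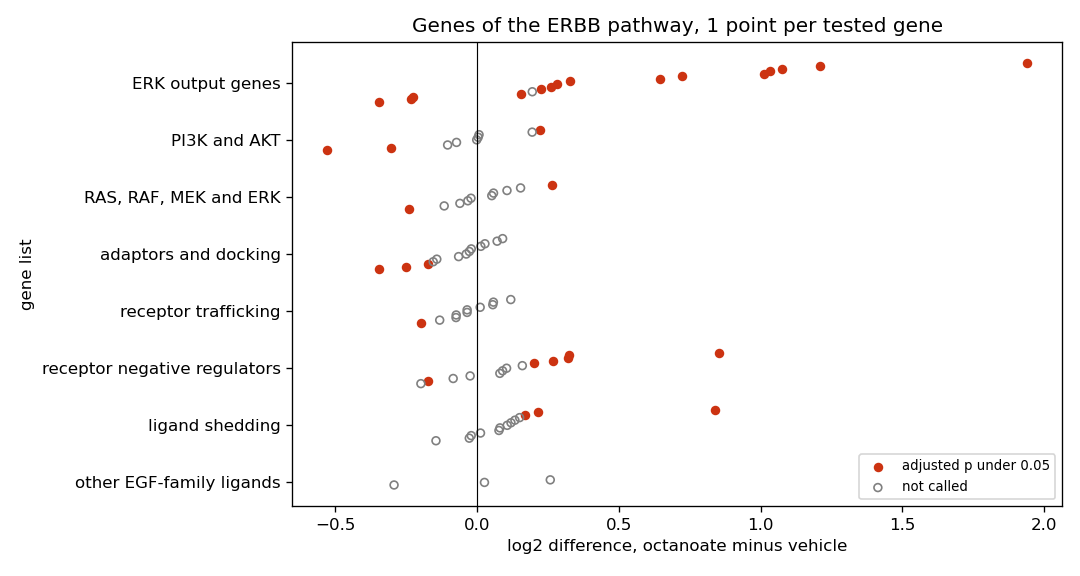
Log2 difference of octanoate minus vehicle for each tested gene of 8 lists of the ERBB pathway, 1 point per gene and 1 row per list. Filled points have a limma adjusted p under 0.05. In the ERK output row 12 filled points lie right of 0 and 3 left of it, while most points of the adaptor, trafficking, RAS and PI3K rows are open and near 0.

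Several ligands of the family are also made by keratinocytes, so markers of these cells were read in the same libraries. KRT1 was at 0 in all 4 libraries, KRT5 did not exceed 12.8 and TP63 did not exceed 10.8 normalised counts. KRT14 fell from 1110 and 942 in vehicle to 266 and 218 in octanoate (log2 difference -2.08, limma adjusted p = 2.40e-13). The summed keratinocyte markers ran from 5724 to 6758 in vehicle and from 4840 to 6489 in octanoate, most of it KRT10, and 6 of the 9 exceeded 10 in some library. The part of these markers in the ligand levels was not tested.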

How the data were processed

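RNA from A375 melanoma cells was sequenced in 2 vehicle and 2 octanoate libraries. Per the submitters' processing notes, bcl2fastq 2.17, Trim Galore, STAR 2.4, Picard, HTSeq 0.9.1 and DESeq2 were used with build hg38. Annotation and strand use are not given in the sources used here.

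The authors deposited a signal per gene and library, read counts divided by 1 factor per library. Dividing each library by its smallest positive value gave whole reads (100% of values, tolerance 0.01). A second deposited table by the authors holds, per the file headers, p-values, a test score, log2 fold changes and their errors beside the mean signal. Only its log2 fold changes are printed.

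Genes with a mean of at least 10 were fitted on log2(normalised count + 1) by limma 3.58.1 in R 4.3.3, two-sided and with an intensity trend, with Benjamini-Hochberg adjustment over all 20250 genes and calls at an adjusted p under 0.05. The pseudocount of 1 understates changes of low genes. An exact permutation test of 2 against 2 cannot go below p = 0.333. Gene lengths, overlaps and neighbours came from GENCODE 29, in which 29502 genes were found once by name, and promoters from RefSeq (GRCh38.p14). Shared sequence was searched with blastn 2.17.0 (minimum 95% identity, 100 bases). The model was first run on simulated data, and the outcome is not reported here. The genes and lists were chosen with earlier results of these data known. Named by rule were, per list, the 2 called genes with the smallest p, every tested ligand, the 3 genes nearest to AREG and to EREG, neighbours within 300 kb, and markers. The 14 alternatives included edgeR 4.0.16 and DESeq2 1.42.0 on the recovered reads.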

Additional observations from a re-analysis of the deposited data

How the results depend on the processing

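Of the 10 ligand and receptor genes ERBB4 was the one whose log2 difference changed direction under an alternative. It changed sign to -0.23 without vehicle 2 and reached 0.59 without vehicle 1. That of AREG stayed between 4.38 and 4.68, that of ERBB3 between -0.55 and -0.48, and that of NRG1 between 0.04 and 0.38. NRG2, not called, changed sign to -0.036 without vehicle 2 and to -0.070 without octanoate 1, and reached 0.12 without octanoate 2. The cause was not tested. Over all genes 6048 were called, and 33 of the 87 tested pathway genes. With every gene that had a read these counts were 2595 and 20, and without an intensity trend 1625 and 9; the cause was not tested. Leaving out 1 library gave 4382 to 4878 and 26 to 30, with the lone library of a group assumed to vary like the other group. With the replicate number as a block (replicate block) they were 8376 and 45, and SOX10 was then called (adjusted p = 0.0175). The numbers mark only 2 pairs whose meaning the labels do not give, and same-numbered libraries deviated with a correlation of 0.126 over genes. Of the 33 pathway calls, 9 held under every one of the 14 alternatives: ADAM19, ERRFI1, VGF, PLAUR, FOSL1, DUSP5, EGR1, PHLDA1 and MYC. Taking the longest transcript as gene length, added after the data were seen, changed the AREG share of the ligand sum in octanoate from 39.2% to 42.5% and the ERBB3 share of the receptor sum from 78.9% to 74.6%. Low read numbers limit EREG, BTC and ERBB4.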
